A study of Mus musculus with 5 samples.

Results

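The replication-dependent histone genes were the rows of the deposited mouse table whose symbol begins with Hist1h, Hist2h, Hist3h or Hist4h, with names ending in -ps left out. The rule found 69 genes among the 52143 genes of the table. They comprised 6 genes of the linker histone H1, 20 of H2A, 18 of H2B, 12 of H3 and 13 of H4. On GRCm38, 56 of them lay in the Hist1 group on chromosome 13, 10 in the Hist2 group on chromosome 3 (from 96219865 to 96270132), 2 in the Hist3 group on chromosome 11 and 1, Hist4h4, on chromosome 6. Histone proteins package DNA: pairs of H2A, H2B, H3 and H4 form the core of the nucleosome, and H1 binds the DNA between cores. Cells need new histones when they copy their DNA, and most of these genes are transcribed in S phase. Their mRNAs carry no poly(A) tail in the usual case and end instead in a short stem-loop, to which the protein Slbp binds.

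RNA-Seq was done on 5 samples of mouse colon tumors, with the question of how human Siglec-XII in the gut epithelium alters the tumor transcriptome. The Control group (n = 2, replicates 1 and 4) were Villin1-Cre-ERT mice, which carry a tamoxifen-inducible Cre recombinase under the promoter of villin, a gene of gut epithelial cells. The SIGLEC12 group (n = 3, replicates 2, 3 and 4) carried the same Cre and, in heterozygous form, a conditional knock-in of human SIGLEC12 at the ROSA26 locus, so the human gene was switched on only in cells in which that promoter had been active. The Control mice were littermates by the methods of the study. All were female and 8 weeks old at the start, and all received tamoxifen for 5 days, azoxymethane (AOM, a carcinogen) at 10 mg/kg and cycles of 2.0% dextran sulfate sodium (DSS, an agent toxic to the colon lining) for 5 days with 14 days of recovery, until day 87. The labels name the tissue only as colon. Values are log2(TPM + 1), where TPM is the abundance of a transcript per unit of its length, relative to the total of its sample. Read depth behind the values is unknown, and P values measure only the spread between these 5 samples. The number of mice behind them is not stated, and since the methods describe technical replicate libraries made from each sample, that spread may be in part technical.

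The samples differed in what else their RNA held. Protein-coding genes took 5.70% and 6.73% of the TPM total in Control and 8.85%, 8.75% and 9.72% in SIGLEC12, and TPM is relative to everything in the sample, so each comparison was repeated after the protein-coding total was set equal in all samples ("rescaled" hereafter). Of the 14 listed markers of columnar colon epithelium none was at 0 in all samples, and 13 passed the expression filter. Their summed TPM was 464 and 1411 in Control and lay between 1338 and 2109 in SIGLEC12. Markers of squamous epithelium, 9 of 9 above the expression filter, summed to 2723 TPM in Control replicate 1, to 533 in Control replicate 4 and to between 379 and 800 in SIGLEC12. Control replicate 1 thus stood apart, and its part in the results below was not tested, but the counts and the sum of all members are also given without it. In whole tissue, fewer cells in S phase and less histone mRNA per cell cannot be told apart.

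The stem-loop was looked for in the transcript listed for each gene, since it is the feature that sets these mRNAs apart. The pattern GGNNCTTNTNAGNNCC was found in 45 of the 69 listed transcripts, 21 to 58 bases after the stop codon (median 31). Among listed transcripts that hold at least 100 bases after the stop codon, 26 of 31 members had it in that window (83.9%), against 3 of 15903 other protein-coding transcripts (0.0189%). One example of each class follows, with further H4 variants, with the stem-loop in capitals and 5 flanking bases on each side, read 5′ to 3′ as DNA letters from the GENCODE M21 transcripts.
Hist1h1c (chr13:23739507-23739532, plus strand): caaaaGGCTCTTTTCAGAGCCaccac
Hist2h2aa1 (chr3:96246027-96246052, plus strand): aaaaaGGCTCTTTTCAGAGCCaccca
Hist1h2bg (chr13:23571838-23571863, plus strand): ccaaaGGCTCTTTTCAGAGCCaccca
Hist1h3c (chr13:23745042-23745067, minus strand): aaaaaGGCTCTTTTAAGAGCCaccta
Hist4h4 (chr6:136803993-136804018, minus strand): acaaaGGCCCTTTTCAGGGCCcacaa
Hist2h4 (chr3:96262934-96262959, minus strand): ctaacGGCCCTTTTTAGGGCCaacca
Hist1h4j (chr13:21735432-21735457, plus strand): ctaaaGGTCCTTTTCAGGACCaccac
The sequence shown for Hist1h1c was the most common, in 25 members, and the one shown for Hist4h4 was in 7 members. In 23 members the listed transcript ran on for more than 100 bases past the stem-loop, and in 13 it held no base after the stop codon. Annotated lengths therefore ranged from 312 to 7425 bases (Hist1h1d the longest), and each TPM is per annotated length. The tested members whose transcript ended within 100 bases of the stem-loop (20 genes) had a median log2 fold change of 0.92, and those whose transcript ran on further (20 genes) one of 0.85. The tested members with no match in the listed transcript (19 genes) had a median of 0.98.

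Promoters of 61 members were matched in the RefSeq promoter table (GRCm38.p6), 250 bases before to 50 after the start of each gene, and are shown because genes of each class share elements there. Searched on both strands, CCAAT was present in all 6 H1, 17 H2A, 16 H2B and 10 H3 promoters and in 3 of 12 H4 promoters, against 38.9% of the promoters of other protein-coding genes. TATAAA was in 49.2% of members and 8.86% of the others. The octamer ATTTGCAT was in 7 of 17 H2A and 6 of 16 H2B promoters, in no other member promoter, and in 1.64% of the others. Windows of neighboring H2A and H2B genes on opposite strands can overlap, as for Hist1h2ae and Hist1h2bg. The same match can then count in both classes. No motif of the 3 lies within another, and a match describes sequence only. The 120 bases before the start are printed for a gene of each of 4 classes, with the matches in capitals.
Hist1h1c (chr13:23738687-23738806, plus strand): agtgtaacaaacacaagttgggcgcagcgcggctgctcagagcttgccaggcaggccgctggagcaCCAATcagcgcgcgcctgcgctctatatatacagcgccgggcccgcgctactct
Hist1h2bg (chr13:23571280-23571399, plus strand): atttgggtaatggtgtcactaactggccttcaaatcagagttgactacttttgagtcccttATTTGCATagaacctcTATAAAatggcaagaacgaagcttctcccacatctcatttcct
Hist2h3b (chr3:96268534-96268653, plus strand): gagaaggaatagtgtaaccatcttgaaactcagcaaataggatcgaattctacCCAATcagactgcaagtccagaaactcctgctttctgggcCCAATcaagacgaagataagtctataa
Hist1h4n (chr13:21832198-21832317, minus strand): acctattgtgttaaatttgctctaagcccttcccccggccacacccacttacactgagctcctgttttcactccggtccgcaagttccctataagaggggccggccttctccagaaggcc
In the stretch shown, the Hist1h2bg promoter holds an octamer followed by a TATA box, the Hist2h3b promoter holds 2 CCAAT boxes, and the Hist1h4n stretch holds none of the 3 motifs.

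Summed over all members, histone mRNA was 917 and 1142 TPM in Control replicates 1 and 4, and 1654, 2347 and 2535 TPM in SIGLEC12 replicates 2, 3 and 4. The mean was 1029 ± 159 (SD, n = 2) against 2179 ± 464 (SD, n = 3), a ratio of 2.09 by the means of log2 values, and the groups did not overlap. As a share of the protein-coding TPM, the members took 1.61% and 1.69% in Control and 1.87%, 2.68% and 2.61% in SIGLEC12, a ratio of 1.43. On this scale SIGLEC12 replicate 2 was nearer the Control samples than the other SIGLEC12 samples were. Without Control replicate 1 the ratio of sums was 1.88, and 1.39 rescaled. Sums are given because reads from near-identical histone genes cannot be assigned to one of them. A sum does not depend on that split between copies of equal annotated length, but it can where lengths differ or where sequence is shared with genes outside the class.

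**Figure D1:**
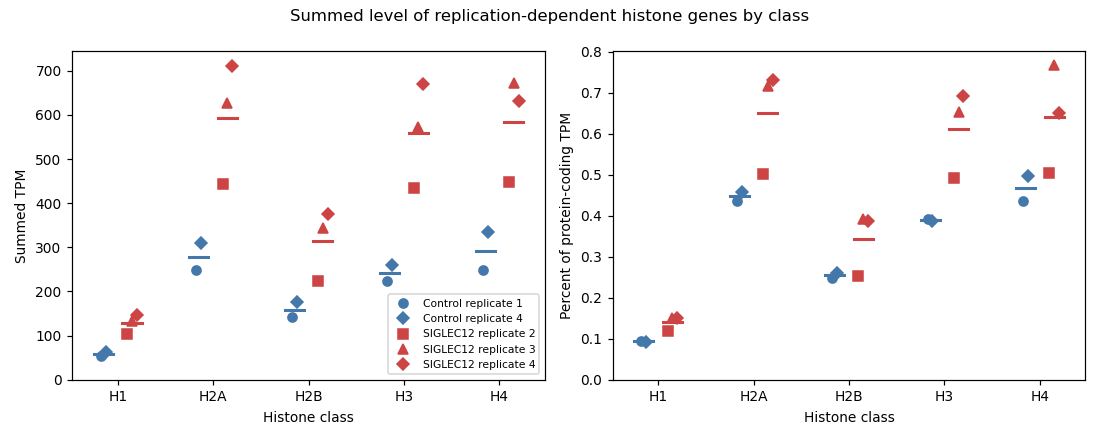
Summed TPM of the histone genes of each class (left) and the same as a percentage of protein-coding TPM (right), with 1 point per sample and a line at the group mean. On the left all 3 SIGLEC12 samples lie above both Control samples in every class. On the right SIGLEC12 replicate 2 is the SIGLEC12 sample nearest to Control, and in H2B it lies between the Control values.

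Of all member TPM, the classes took these shares over the 5 samples: 26.7% to 28.1% for H2A, 24.9% to 29.3% for H4 and 22.8% to 26.5% for H3. The H4 range overlapped those of H2A and H3, and all H2A shares were above all H3 shares. H2B took 15.4% in both Control samples and 13.5%, 14.6% and 14.8% in SIGLEC12, lower without overlap. H1 took 5.46% to 6.33%. The H1 sum per 100 TPM of core histones was 6.26 and 5.78 in Control and 6.76, 5.98 and 6.11 in SIGLEC12, so the groups overlapped in the ratio of linker to core histone mRNA.

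Of the 69 members, 59 passed the expression filter (TPM of 1 or more in 2 or more samples), and in none of these were both Control samples under TPM 1. In Hist1h2ac, Hist1h2bp and Hist1h4i, however, Control replicate 1 was under TPM 1, so they passed only with the help of SIGLEC12 samples. By limma over all 10338 tested genes, 58 of the 59 were higher in SIGLEC12 and 1, Hist2h2aa2, was lower, beside 87.2% of all tested genes that were higher by sign. The median log2 fold change of the tested members was 0.94, beside 0.38 for all tested genes. When adjusted P under 0.05 (Benjamini-Hochberg) was required together with a 2-fold change, 0 members were called, as were 0 genes in all (0%), and the smallest adjusted P of a member was 0.0974. Unadjusted P was at most 0.05 in 51 members, all of them higher (86.4%, beside 33.4% of all tested genes). Of these, 23 were also higher by at least 2-fold (39.0%, beside 3.97% of all tested genes), which is called the unadjusted 2-fold threshold here, and no member was lower by it. The adjusted P of those 23 lay between 0.0974 and 0.111. By exact permutation, 27 of the 59 had P = 0.1, the smallest that groups of 2 and 3 allow. The groups did not overlap in 52 members (88.1%), beside 54.1% of all tested genes.

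After rescaling, the median of the members was 0.42 and that of all tested genes 0.01. Then 57 of 59 members were still higher, beside 51.1% of all tested genes, 13 with unadjusted P up to 0.05 (22.0%, beside 4.45% of all tested genes). Groups did not overlap in 34 members (57.6%, beside 15.6%). Only Hist4h4 remained past the unadjusted 2-fold threshold, which 0.368% of all tested genes then passed. Without Control replicate 1, 12 members passed that threshold on the deposited scale (1.38% of all tested genes), with a median of 0.84 beside 0.26 for all tested genes. In that fit 31 members had unadjusted P up to 0.05 (13.9% of all tested genes), and 52 of 59 still had groups that did not overlap, beside 58.7% of all tested genes. With sample quality weights 29 members had unadjusted P up to 0.05, with a median of 0.80 beside 0.38 for all tested genes. The share of all tested genes at that P was not counted with these weights. Without SIGLEC12 replicate 2, 41 members passed the unadjusted 2-fold threshold (4.78% of all tested genes), with a median of 1.15 beside 0.38.

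**Figure D2:**
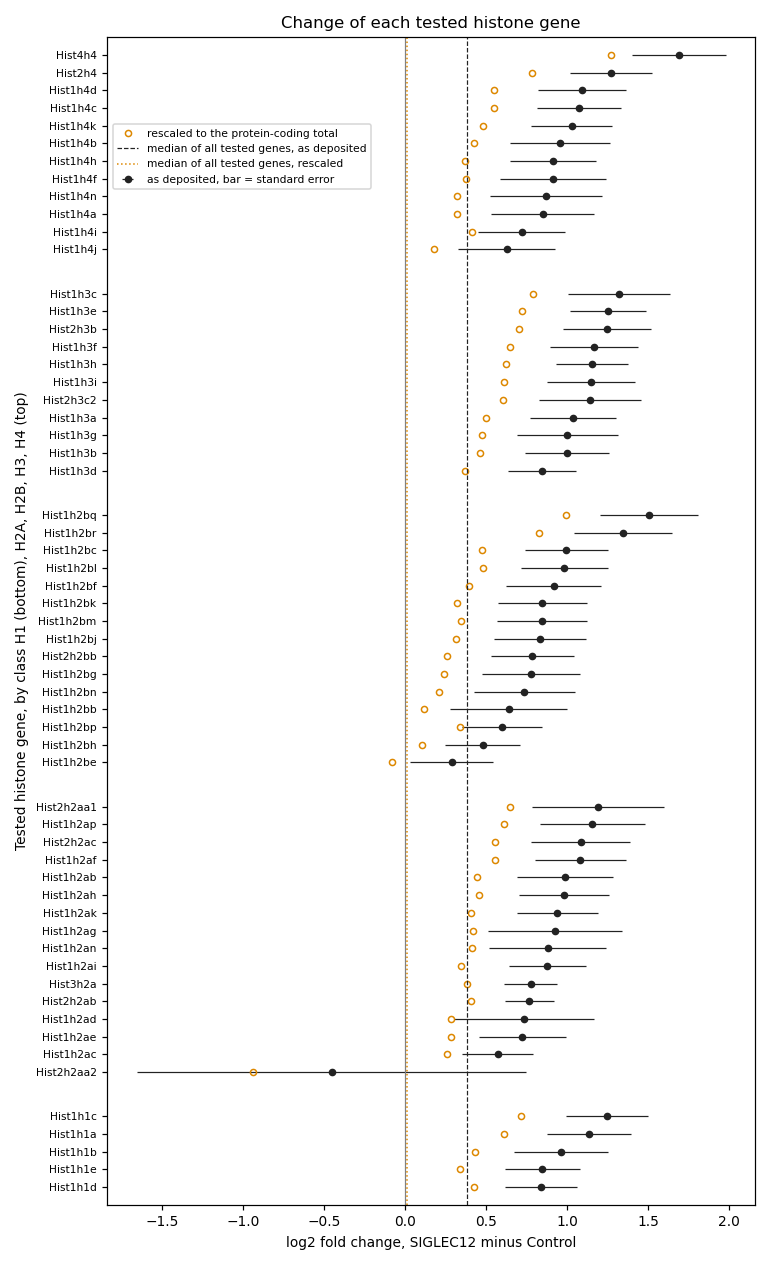
The log2 fold change of each of the 59 tested histone genes (filled, with its standard error) and the same after rescaling (open), by class, with dashed and dotted lines at the medians of all tested genes, 0.38 and 0.01. All filled points but that of Hist2h2aa2 lie above 0, and Hist4h4 at the top lies farthest to the right on either scale.

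The samples ranked alike from gene to gene. As deposited, Control replicate 1 was the lowest of the 5 samples in 54 of the 59 tested members, and SIGLEC12 replicate 2 was the lowest of its group in 58. SIGLEC12 replicate 4 was the highest of its group in 42 members and replicate 3 in 16. Members are thus not independent of each other, and the counts above describe 5 samples. These ranks were not counted over all tested genes or after rescaling. After rescaling, Control replicate 1 lay above replicate 4 in some members (Hist2h3b, 6.022 and 5.905). It lay below replicate 4 in others (Hist1h1c, 4.259 and 4.626).

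**Figure D3:**
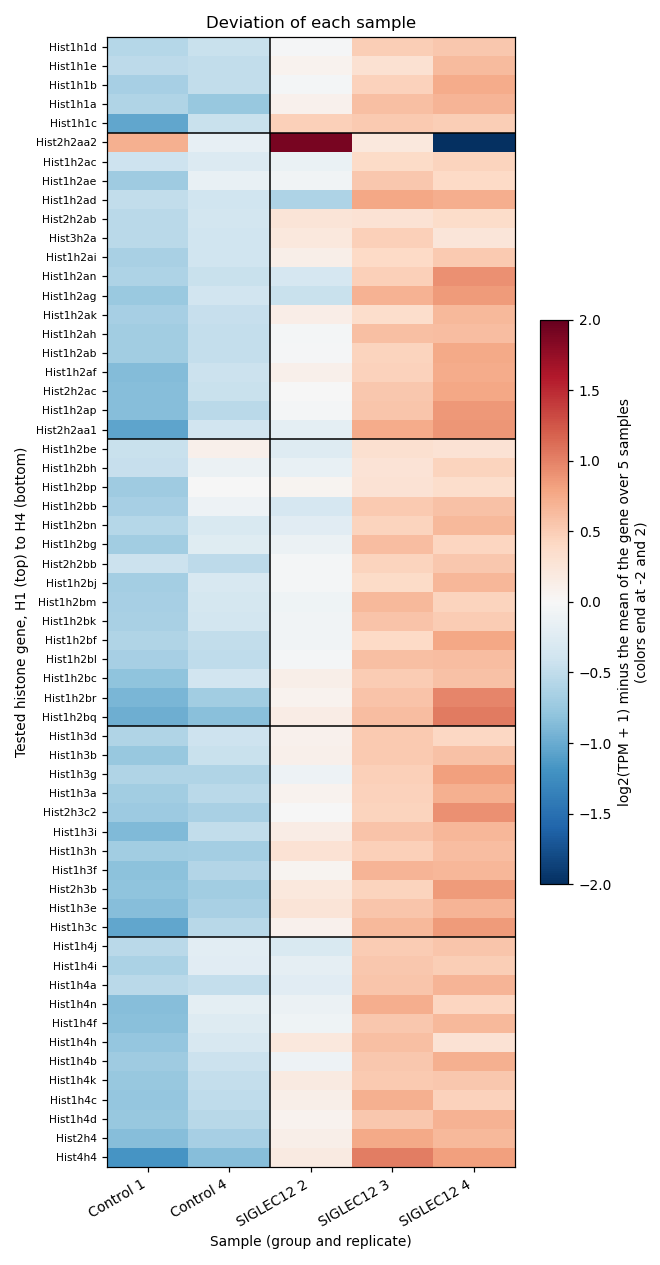
Deviation of each sample from the mean of the gene, in log2(TPM + 1), for the 59 tested histone genes in rows and the 5 samples in columns. The Control columns are mostly blue (lower), SIGLEC12 2 is pale and SIGLEC12 3 and 4 are red (higher), with Hist2h2aa2 as the row that departs from this.

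All 5 tested H1 genes were higher in SIGLEC12, with groups that did not overlap. Beside this and the counts of the other classes below, 87.2% of all tested genes were higher by sign and 54.1% without overlap. With unadjusted P up to 0.05, 33.4% of all tested genes were higher, and 3.97% passed the unadjusted 2-fold threshold. H1 proteins compact chromatin by binding linker DNA. Hist1h1c, the most abundant H1 gene here (ENSMUSG00000036181, chromosome 13, 23738808 to 23740367), was at 3.81 and 4.40 in Control and at 5.32, 5.38 and 5.35 in SIGLEC12. Its SIGLEC12 values were close together, unlike those of most members, and all lay above Control (log2 fold change 1.25 ± 0.25 SE, adjusted P = 0.0974 by limma; exact permutation P = 0.1, the smallest that 5 samples in groups of 2 and 3 allow). Hist1h1a was at 3.86 and 3.72 in Control and at 4.55, 5.08 and 5.15 in SIGLEC12 (log2 fold change 1.13 ± 0.26 SE). Those 2 genes passed the unadjusted 2-fold threshold. Hist1h1b, at 4.14 and 4.31 in Control, was at 4.76, 5.26 and 5.55 in SIGLEC12 (0.96 ± 0.29). For Hist1h1e the values were 3.28 and 3.30 in Control and 3.88, 4.11 and 4.43 in SIGLEC12 (0.85 ± 0.23). No H1 transcript had under 50% of its 31-base words unique to it, so the reads of these genes can largely be told apart. The sum of H1 was 58.2 ± 5.91 TPM in Control and 127.7 ± 21.1 in SIGLEC12, a ratio of 2.18, or 1.48 after rescaling, with no overlap on either scale.

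The member listed with the highest mean, Hist2h2aa1, is an H2A gene. Of 16 tested, 15 were higher in SIGLEC12, 13 of them with unadjusted P up to 0.05, and 4 passed the unadjusted 2-fold threshold: Hist2h2aa1, Hist1h2ap, Hist2h2ac and Hist1h2af. The median log2 fold change was 0.90, and 0.41 after rescaling. Hist2h2aa1 was at 5.63 and 6.31 in Control and at 6.49, 7.43 and 7.58 in SIGLEC12 (log2 fold change 1.19 ± 0.41 SE). Its copy Hist2h2aa2 was at 4.54 and 3.67 in Control and at 5.73, 4.04 and 1.18 in SIGLEC12, the one tested member with a negative fold change (-0.45 ± 1.20, adjusted P = 0.784). Every 31-base word of either transcript occurs in the other or in another transcript, so the split between them carries no information. The rank of Hist2h2aa1 and its place past the threshold depend on that split. The summed TPM of the pair was 70.8 and 90.2 in Control and 141, 187 and 191 in SIGLEC12. On the log2(TPM + 1) scale the sum was higher by 1.09 with no overlap.

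Other H2A genes were mostly higher by similar amounts, but the groups overlapped in Hist1h2ad and Hist1h2ag, where SIGLEC12 replicate 2 lay below a Control sample. Hist1h2ap was at 5.47 and 5.79 in Control and at 6.29, 6.89 and 7.19 in SIGLEC12 (1.16 ± 0.33), while its near copy Hist1h2ao, which shares 93.8% of its words with it, was below 1 in all 5 samples. Hist1h2ab was at 5.15 and 5.37 in Control and at 5.83, 6.30 and 6.62 in SIGLEC12 (0.99 ± 0.30). Values of Hist1h2ak were 4.38 and 4.58 in Control and 5.17, 5.40 and 5.69 in SIGLEC12 (0.94 ± 0.25). In each of these the SIGLEC12 samples lay above Control, with replicate 2 the nearest to it. Hist2h2ac was at 3.87 and 4.28 in Control and at 4.71, 5.26 and 5.50 in SIGLEC12 (1.08 ± 0.31). Hist1h2af stood at 3.80 and 4.25 in Control and at 4.78, 5.13 and 5.42 in SIGLEC12 (1.08 ± 0.28). The H2A sum was 279 ± 42.8 TPM in Control and 594 ± 136 in SIGLEC12, a ratio of 2.10, or 1.43 after rescaling.

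H2B genes had the lowest median of the 5 classes, 0.83, and 0.32 after rescaling; the difference between classes was not tested. All 15 tested genes were higher in SIGLEC12, 11 with unadjusted P up to 0.05, but only 2 passed the unadjusted 2-fold threshold. These were Hist1h2bq and Hist1h2br, whose listed transcripts have more than 1 exon and hold no stem-loop match. Hist1h2bq (chromosome 13, 21806612 to 21810197) was at 3.16 and 3.29 in Control and at 4.27, 4.75 and 5.17 in SIGLEC12 (log2 fold change 1.51 ± 0.30 SE). Hist1h2br was at 3.45 and 3.66 in Control and at 4.44, 4.93 and 5.33 in SIGLEC12 (1.35 ± 0.31). The pair shares 98.2% of the words of Hist1h2bq, so the summed value is given beside them, although the annotated lengths differ (2015 and 1256 bases): 17.8 and 20.4 TPM in Control and 38.9, 55.4 and 74.2 in SIGLEC12, higher by 1.46 on the log2(TPM + 1) scale.

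The 4 most abundant H2B genes differed less. Hist1h2bg was at 4.32 and 4.76 in Control and at 4.89, 5.63 and 5.44 in SIGLEC12 (0.78 ± 0.30). Hist2h2bb was at 4.09 and 3.99 in Control and at 4.46, 4.96 and 5.05 in SIGLEC12 (0.79 ± 0.26). For Hist1h2bk, 3.78 and 4.07 in Control stood against 4.36, 5.01 and 4.94 in SIGLEC12 (0.85 ± 0.28). After rescaling the groups overlapped in all 4 of the most abundant H2B genes, Hist1h2bn included. Hist1h2bn was at 3.90 and 4.16 in Control and at 4.25, 4.92 and 5.12 in SIGLEC12 (0.74 ± 0.31, adjusted P = 0.15). The smallest positive changes of the tested members were also in H2B. Hist1h2bh was at 1.28 and 1.62 in Control and at 1.58, 2.02 and 2.19 in SIGLEC12 (0.48 ± 0.23). Hist1h2be was at 1.25 and 1.78 in Control and at 1.43, 2.00 and 1.97 in SIGLEC12 (0.29 ± 0.26, adjusted P = 0.416). The groups overlapped in both, and Hist1h2be had the opposite sign after rescaling (-0.08). The H2B sum was 158 ± 24.4 TPM in Control and 314 ± 79.7 in SIGLEC12, a ratio of 1.95, or 1.33 after rescaling, where the groups overlapped.

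H3 genes had the highest median of the 5 classes, 1.15, and 0.61 after rescaling. H3 carries many of the modified residues by which chromatin is marked as active or silent. All 11 tested H3 genes were higher in SIGLEC12 with unadjusted P up to 0.05 and groups that did not overlap, and 10 of them passed the unadjusted 2-fold threshold, the exception being Hist1h3d (0.85 ± 0.21). Hist2h3b (chromosome 3, 96268654 to 96269141), the most abundant, was at 5.55 and 5.67 in Control and at 6.56, 6.80 and 7.20 in SIGLEC12 (log2 fold change 1.25 ± 0.27 SE). Hist1h3i was at 5.01 and 5.39 in Control and at 6.04, 6.47 and 6.55 in SIGLEC12 (1.15 ± 0.27). In both genes each SIGLEC12 sample lay above both Control samples. Hist1h3b was at 4.72 and 5.04 in Control and at 5.58, 6.0 and 6.07 in SIGLEC12 (1.0 ± 0.26). Hist2h3c2 was at 4.58 and 4.66 in Control and at 5.30, 5.76 and 6.23 in SIGLEC12 (1.14 ± 0.31).

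The largest change in the class was that of Hist1h3c, at 4.22 and 4.71 in Control and at 5.34, 5.91 and 6.11 in SIGLEC12 (1.32 ± 0.32). Hist1h3e came next, its Control samples at 3.95 and 4.14 and its SIGLEC12 samples at 5.06, 5.35 and 5.48 (1.25 ± 0.24). The other 4 genes past the threshold, Hist1h3f, Hist1h3h, Hist1h3a and Hist1h3g, had log2 fold changes of 1.16, 1.16, 1.03 and 1.0. Hist1h3h, for example, was at 4.33 and 4.35 in Control, close together, and at 5.33, 5.51 and 5.65 in SIGLEC12. After rescaling 10 of the 11 still had groups that did not overlap, and 6 unadjusted P up to 0.05. In 11 of the 12 H3 transcripts under 50% of the words were unique, as in 16 of 20 H2A, 10 of 18 H2B and 5 of 13 H4 transcripts. All words of Hist2h3b and of the H2B gene Hist2h2bb also occur in Gm20628, a gene outside the members. Reads of such genes are hard to divide, so values of single genes depend on that split. The H3 sum was 242 ± 25.6 TPM in Control and 559 ± 119 in SIGLEC12, a ratio of 2.28, or 1.55 after rescaling, with no overlap on either scale.

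All 12 tested H4 genes were higher in SIGLEC12, 11 with unadjusted P up to 0.05, with a median of 0.94, and 0.42 after rescaling. Hist4h4 (ENSMUSG00000096010, chromosome 6, 136801553 to 136804415, minus strand), the H4 gene that lies apart from the other clusters, had the largest change of all members. It was at 1.45 and 1.78 in Control and at 2.81, 3.66 and 3.44 in SIGLEC12. Each SIGLEC12 sample thus lay well above both Control samples (log2 fold change 1.69 ± 0.29 SE, adjusted P = 0.0974 by limma; exact permutation P = 0.1). After rescaling the change was 1.27, and with the trend on transcript length removed as well it was 1.26. Its listed transcript runs 2445 bases past the stem-loop shown above and 81.3% of its words are unique to it.

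Hist2h4 had the second largest change in the class, at 2.49 and 2.68 in Control and at 3.46, 4.10 and 4.0 in SIGLEC12 (1.27 ± 0.25), and 97.4% of its words are unique. Like Hist4h4 it was expressed at a lower level than most H4 genes. The abundant members differed less. Hist1h4n was at 5.70 and 6.35 in Control and at 6.43, 7.27 and 6.97 in SIGLEC12 (0.87 ± 0.35), and its near copy Hist1h4m was listed at 0 in all 5 samples. Hist1h4h was at 5.58 and 6.04 in Control and at 6.57, 6.96 and 6.65 in SIGLEC12 (0.91 ± 0.27). Hist1h4k stood at 5.44 and 5.74 in Control and at 6.38, 6.73 and 6.75 in SIGLEC12 (1.03 ± 0.25). The groups were separate in each, but for Hist1h4n they overlapped after rescaling. Hist1h4d was at 4.80 and 5.01 in Control and at 5.63, 6.10 and 6.25 in SIGLEC12 (1.09 ± 0.27). Hist1h4c was at 3.82 and 4.10 in Control and at 4.73, 5.31 and 5.06 in SIGLEC12 (1.07 ± 0.26). Hist1h4f and Hist1h4b, also abundant, were higher by 0.91 ± 0.32 and 0.96 ± 0.31, without overlap. The H4 sum was 292 ± 60.2 TPM in Control and 584 ± 120 in SIGLEC12, a ratio of 1.99, or 1.36 after rescaling.

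The Hist3 genes and the members below the filter were listed at low levels or at 0. Where few words are unique, as in Hist1h4m (8.33%) and Hist1h2ao (6.22%), such values may depend on how reads were assigned. Hist3h2a was at 1.44 and 1.58 in Control and at 2.19, 2.44 and 2.22 in SIGLEC12 (0.78 ± 0.16, adjusted P = 0.0974). Hist3h2ba, the other Hist3 gene, fell below the filter, at 0.16 and 0.31 in Control and at 0.68, 1.33 and 0.59 in SIGLEC12. Both showed SIGLEC12 above Control without overlap. The 10 members below the filter were at or under 1.33 in every sample. Among them were the 3 histone genes known from the male germ line: Hist1h2ba was listed at 0 in all 5 samples, Hist1h2aa was above 0 in 1 sample (0.06), and Hist1h1t reached at most 0.10. The filter left out 2 genes annotated as pseudogenes, Hist1h2aj and Hist1h2al.

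Abundant and scarce genes were interspersed along the Hist1 group. From 21715763 to 23934851 on chromosome 13, 55 Hist1 genes of all 5 classes lay interspersed, 49 of them tested, with a median log2 fold change of 0.93, and the last, Hist1h2al, lay far off at 51202727. The germline pair Hist1h2ba and Hist1h2aa closed the group at its far end. All 49 tested genes were higher in SIGLEC12, by 0.29 to 1.51 on the log2 scale, whatever their level, beside 87.2% of all tested genes. The 8 tested Hist2 genes had a median of 1.11, on 7 genes that were higher and Hist2h2aa2.

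**Figure D4:**
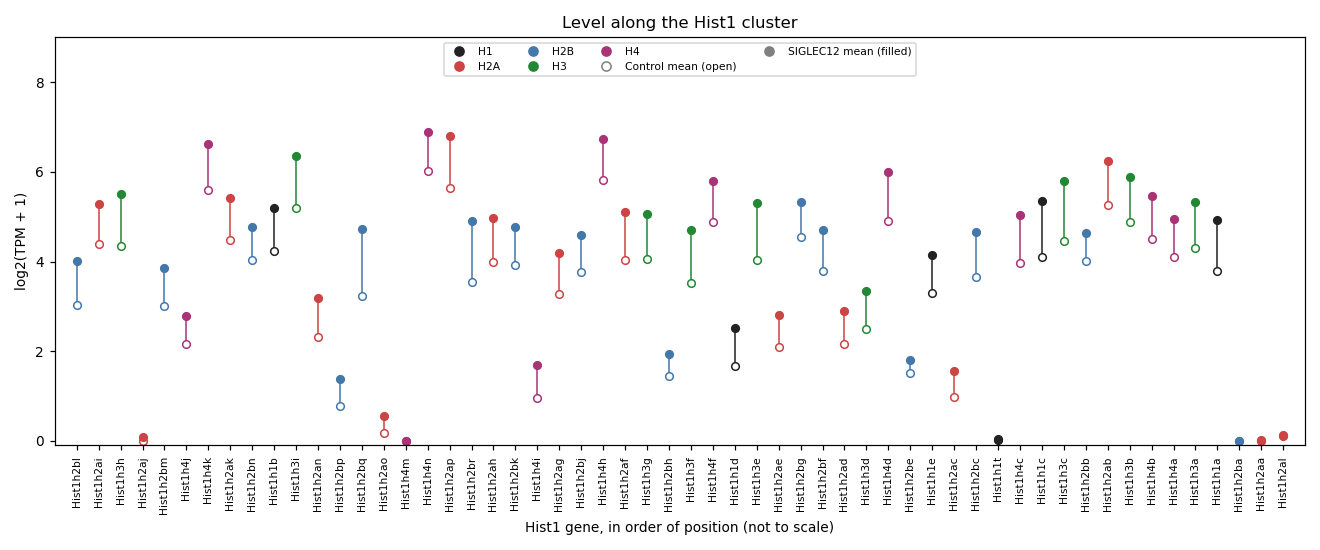
Mean log2(TPM + 1) of the 56 Hist1 genes in order of position on chromosome 13, Control (open) joined to SIGLEC12 (filled), colored by class. Filled points lie above open points for all 49 tested genes, and genes listed at 0 in all samples lie at the bottom.

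Many H2A and H2B genes lie head to head and share the DNA between their starts. There were 13 such pairs, each an H2A with an H2B gene on opposite strands, with 176 to 306 bases between the annotated starts. In 9 of them both genes were tested. Their log2 fold changes differed by 0.05 to 0.42 within a pair (median 0.18), with the H2A gene the larger in 4 of 9. Hist1h2ak and Hist1h2bn, for example, were higher by 0.94 and 0.74, and Hist1h2ae and Hist1h2bg, whose starts are 176 bases apart, by 0.72 and 0.78. The standard errors of tested members, 0.27 at the median, are those of single genes. The error of a difference within a pair was not computed. Listed levels could still differ strongly: Hist2h2ac lay at 4.73 on average and its partner Hist2h2be, below the filter, at 0.34. Their listed transcripts are 520 and 2620 bases long, with 35.9% and 97.2% of words unique. The part of length and shared sequence in this gap was not tested.

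Genes of related roles were read off the same fit, and the shares of all tested genes given above apply to their counts as well. Replacement histones are made also outside S phase from polyadenylated mRNA. Of 11 listed, 9 were tested and all 9 were higher in SIGLEC12, the groups being separate in each, 7 with unadjusted P up to 0.05, with a median of 0.84. H2afz, which encodes H2A.Z, was at 4.05 and 4.38 in Control and at 4.83, 5.42 and 5.56 in SIGLEC12 (1.05 ± 0.30, adjusted P = 0.0974). H3f3a and H3f3b, which encode H3.3, were higher by 0.79 ± 0.24 and 0.89 ± 0.28. The median of the replacement histones was thus 0.84 beside 0.94 for the members. Within a sample the ratio of summed TPM of the members to that of the replacement histones was 7.66 and 7.65 in Control and 7.38, 9.07 and 9.96 in SIGLEC12, with overlap. For H3 alone, the sum of the members to that of H3f3a and H3f3b was 3.16 and 3.05 in Control and 3.31, 3.83 and 4.86 in SIGLEC12, higher without overlap. The ratio of H2A members to H2afz overlapped between the groups. Such ratios do not move with the scaling of a sample.

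The genes of DNA replication and mitosis had smaller median changes. For these lists too, 87.2% of all tested genes were higher and 33.4% were so with unadjusted P up to 0.05. Groups did not overlap in 29 of the 32 tested DNA replication genes and in 12 of the 16 genes of G2 and mitosis. That compares with 52 of the 59 tested members and 54.1% of all tested genes. Of 32 tested DNA replication genes, all were higher, 14 (43.8%) with unadjusted P up to 0.05 and 0 by 2-fold, with a median of 0.45, and 0.12 after rescaling. Pcna, the sliding clamp of DNA polymerase, was at 3.04 and 3.43 in Control and at 3.78, 4.0 and 4.13 in SIGLEC12 (0.73 ± 0.23, adjusted P = 0.101). Mcm2, a subunit of the replicative helicase, was higher by 0.44 ± 0.19 (adjusted P = 0.149). The ratio of the member sum to the DNA replication sum was 15.4 and 15.7 in Control and 16.7, 22.9 and 19.4 in SIGLEC12, without overlap. All 16 genes of G2 and mitosis were higher, 12 with unadjusted P up to 0.05, with a median of 0.61, and 0.19 after rescaling. Top2a, Cdk1 and Ube2c were higher by 0.65 ± 0.24, 0.72 ± 0.27 and 0.88 ± 0.23. Mki67, the proliferation marker, was at 2.52 and 2.96 in Control and at 2.90, 2.49 and 3.43 in SIGLEC12, with overlap (0.20 ± 0.31, adjusted P = 0.628). Against the G2 and mitosis sum, the member sum was 22.6 and 19.4 in Control and 21.9, 30.9 and 23.4 in SIGLEC12, with overlap.

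The genes that make and handle histone mRNA and protein lay nearer the background of all genes. Of 15 tested genes of histone mRNA transcription, 3′ end processing and decay, 3 had unadjusted P up to 0.05 and 0 reached 2-fold, with a median of 0.26, and -0.14 after rescaling. Slbp, which binds the stem-loop, was at 1.57 and 1.85 in Control and at 1.91, 2.09 and 2.43 in SIGLEC12 (0.43 ± 0.21, adjusted P = 0.182). Npat, the S phase coactivator of histone genes, was at 0.81 and 0.96 in Control and at 1.10, 1.11 and 1.19 in SIGLEC12 (0.25 ± 0.16, adjusted P = 0.282). The groups did not overlap in either gene, and neither passed a threshold. Srrt and Upf1 differed by 0.03 ± 0.25 and 0.01 ± 0.22. Of 17 tested histone chaperones and assembly factors, 6 had unadjusted P up to 0.05 (35.3%, near the share of all tested genes), with a median of 0.39, and -0.04 after rescaling, and Rbbp7 was higher by 0.50 ± 0.20.

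**Figure D5:**
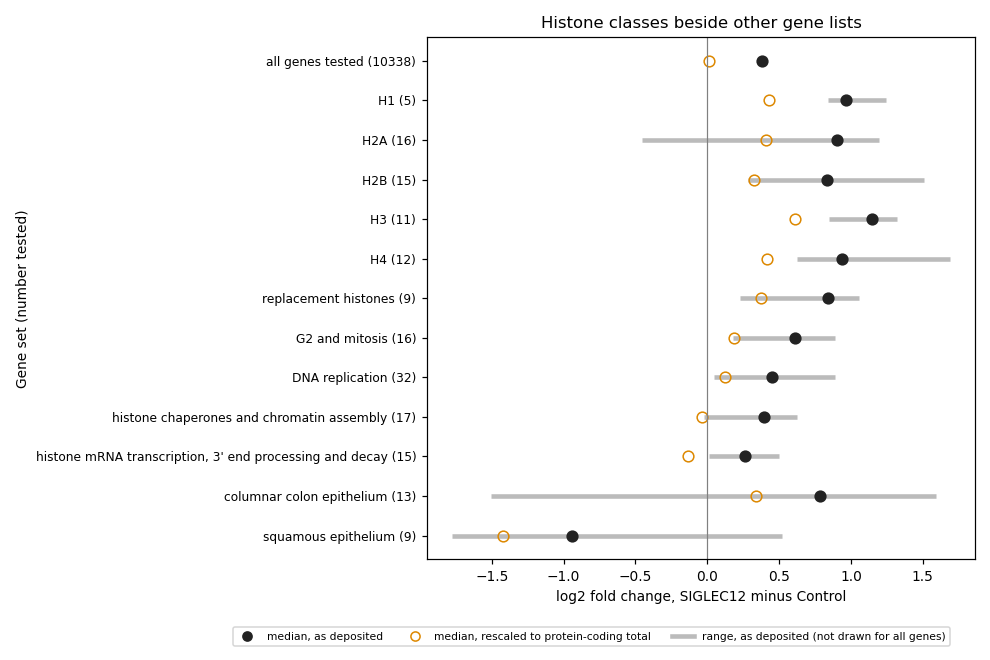
Median log2 fold change of the tested genes of each histone class and of other gene lists, as deposited (filled, with the range in gray) and after rescaling (open). The 5 histone classes lie between 0.83 and 1.15 as deposited and between 0.32 and 0.61 after rescaling, with all tested genes at 0.38 and 0.01.

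Transcript length and cell type markers moved with the groups as well, and their part in the histone values was not tested. Among protein-coding genes the median log2 fold change was 0.47 for transcripts up to 500 bases and 0.27 for those over 4000. The tested members had a median of 0.93 in the first of these bins (23 genes) and 0.91 from 500 to 1000 bases (20 genes), where protein-coding genes had 0.55. With the length trend removed after rescaling, the median of the members was 0.37. Columnar epithelium markers had a median of 0.79 over 13 tested genes, 11 of them higher, and of 0.34 after rescaling. Of the 13, 5 were higher past the unadjusted 2-fold threshold, beside 23 of 59 members and 3.97% of all tested genes. Past the same threshold 1 was lower, Slc26a3 (-1.50 ± 0.42). Krt19 was higher by 1.38 ± 0.51, and groups overlapped in Muc2 (0.36 ± 0.56). Squamous markers had a median of -0.94 over 9 tested genes, 8 of them lower, and none passed the unadjusted 2-fold threshold. By fold change alone Krt5 (-1.67 ± 0.76) and Krt14 (-1.51 ± 1.16) were lower by more than 2-fold and Krt13 (-0.17 ± 0.38) was not. The groups overlapped in each. Of 5 tested fibroblast markers, 5 were higher, and Dcn was at 1.60 and 2.45 in Control and at 4.57, 3.43 and 3.33 in SIGLEC12. Fibroblast markers summed to 8.71 and 10.5 TPM in Control and to 57.9, 18.0 and 24.4 in SIGLEC12, highest in replicate 2, the SIGLEC12 sample with the lowest histone levels. The sums of smooth muscle, myeloid and neutrophil markers overlapped between the groups. Summed smooth muscle markers lay at 45.3 to 52.0 TPM in Control and 45.7 to 112 in SIGLEC12, myeloid markers at 4.30 to 10.3 and 5.17 to 21.9, and neutrophil markers at 7.87 to 17.5 and 9.10 to 31.6. Sums were higher in SIGLEC12 without overlap for endothelial markers (1.04 to 1.05 TPM in Control, 2.12 to 4.81 in SIGLEC12) and T cell markers (0.415 to 0.538, then 0.629 to 1.19). The same held for B and plasma cell markers (0.802 to 2.06, then 4.08 to 26.4). These sums were low but for the B and plasma cell sum of 26.4 in SIGLEC12 replicate 2. Igkc, the 1 tested gene of these lists, was higher by 1.95 ± 0.77 (adjusted P = 0.133 by limma).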

How the data were processed

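RNA-Seq was done on colon tumors, with 2 Control and 3 SIGLEC12 samples. The authors deposited log2(TPM + 1) values for 52143 Ensembl mouse genes. The submitters' processing notes name GRCm38 and kallisto 0.45.0, while the methods of the study name a human reference. The labels name a total RNA library kit and the methods one for mRNA, which bears on mRNAs without a poly(A) tail, and which was used is not settled here. Whether a column is 1 mouse, 1 technical library or an average of such libraries is not stated. TPM keeps no depth, so no counting interval is given. All value columns belong to these samples (0 left over). Of the gene identifiers 98.45% were in GENCODE M21, the source of positions, biotypes and lengths.

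Genes with TPM of at least 1 in at least 2 samples (10338) were fitted with limma 3.58.1 in R 4.3.3 (lmFit, eBayes with trend, no covariate), with Benjamini-Hochberg adjustment over all of them. The pseudocount of 1 understates changes of low genes. Single genes had an exact two-sided permutation test over the 10 ways to divide the samples. Class sums were taken on TPM. Rescaling set the protein-coding total equal. The fit was tested on simulated data. Named genes were the 4 most abundant members of each class, members past the unadjusted 2-fold threshold, the 3 largest and 3 smallest changes, Hist3, Hist4 and germline genes, and at most 3 abundant genes of each other list plus 8 chosen genes (Slbp, Npat, H2afz, H3f3a, H3f3b, Mki67, Pcna and Mcm2). The members and lists were chosen with earlier results of these data known. Hist1h3d, Hist1h2ao, Hist1h4m, Hist1h2ae, Hist2h2be, Hist1h1d, Hist1h4j, Hist1h2aj, Hist1h2al, Hist1h2ad, Hist1h2ag, Hist1h4f, Hist1h4b, Hist1h2ac, Hist1h2bp, Hist1h4i, Gm20628 and Slc26a3 are named beyond that rule, after their values were seen.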

Additional observations from a re-analysis of the deposited data

How the results depend on the processing

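No paired analysis was possible because just 1 replicate number, 4, occurs in both groups. The direction of the members held under every scaling, filter and weighting run: their median log2 fold change stayed above 0, and was 0.94 as reported, 0.42 after the protein-coding rescale, 0.41 with median-ratio size factors, 0.41 with quantile normalization, 0.37 with the length trend also removed, and 0.62 with the rescale and no SIGLEC12 replicate 2, an alternative chosen after seeing the data. Leaving out 1 sample gave medians from 0.81 to 1.15. Members past the unadjusted 2-fold threshold numbered 23 as reported, 1 after the rescale, 1 with median-ratio factors, 1 with quantile normalization, 1 with the length trend removed, 12 with sample quality weights, 3 with the rescale and no SIGLEC12 replicate 2, and 12 to 41 when 1 sample was left out. With unadjusted P up to 0.05 alone there were 51 as reported (beside 33.4% of all tested genes) and 13 after the rescale (beside 4.45%). For the settings that follow, the share of all tested genes was not counted, so the member counts have no background to be read against. The number was 10 with median-ratio factors, 12 with quantile normalization, 10 with the length trend removed and 29 with quality weights. It was 33 with the rescale and no SIGLEC12 replicate 2, and 36 to 56 when 1 SIGLEC12 sample was left out. Past the adjusted threshold there were 0 as reported and 0 to 8 when 1 sample was left out, the 8 without Control replicate 4, where the lone Control sample is assumed to vary like the others. Over all genes, calls past the adjusted threshold ranged from 0 to 962 higher and 0 to 97 lower when 1 sample was left out. At the unadjusted 2-fold threshold, 410 genes were higher and 46 lower as reported (89.9% of calls higher), 38 and 142 after the rescale (21.1%), 46 and 139 with median-ratio factors (24.9%), 45 and 131 with quantile normalization (25.6%), 41 and 93 with the length trend removed (30.6%), and 39 and 180 with the rescale and no SIGLEC12 replicate 2 (17.8%). Sample quality weights gave 371 higher and 42 lower. A pseudocount of 0.1 gave 1087 higher, and a filter of TPM at least 5 gave 19 lower. Leaving out 1 sample gave 143 to 1366 higher and 51 to 146 lower. The log2 ratio of class sums, rescaled and with median-ratio factors, was 0.57 and 0.56 for H1 (1.12 as reported), 0.52 and 0.51 for H2A (1.07), 0.41 and 0.40 for H2B (0.96), 0.64 and 0.62 for H3 (1.19), 0.44 and 0.43 for H4 (0.99) and 0.51 and 0.50 for all members (1.07). With the rescale and no SIGLEC12 replicate 2 it was 0.69 for H1, 0.70 for H2A, 0.79 for H3, 0.60 for H4 and 0.68 for all members. The sign reversed for Hist1h2be after the rescale (-0.084), with median-ratio factors (-0.086), with quantile normalization (-0.038) and with the length trend removed (-0.12), and for Hist2h2aa2 with quality weights (0.37) and without SIGLEC12 replicate 4 (its range was -1.50 to 0.78 when 1 sample was left out). The cause of these moves was not tested, though the rescale by construction lowers SIGLEC12 values relative to Control, and leaving out a sample leaves fewer samples. Depth is unknown, so values near 0 cannot be given a floor.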
